A study of Mus musculus with 45 samples.

Results

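The genes described here are 10 transcripts of the brain endothelium and its barrier: Cldn5, Pecam1, Flt1, Kdr, Tek, Slc2a1, Abcb1a, Mfsd2a, Slco1a4 and Ly6c1. They were taken as a named list, and all 10 had a row among the 15897 genes of the hippocampal expression table, each under 1 gene identifier. The level of each gene was followed in 45 female mice of C57Bl/6J background across 4 genotypes and 2 diets. AwTw mice were wild-type, AwT+ mice carried human Tau P301L, A+Tw mice carried APPswe/PS1dE9, and A+T+ mice carried both transgenes. The diets were a standard diet (STD, 5% fat by weight and 0% cholesterol) and a typical Western diet (TWD, 21% fat, 0.15% cholesterol and 35% sucrose), given from 7 months of age until sacrifice at 13 months. Each group held 6 mice, apart from A+Tw/STD with 5 and A+T+/STD with 4. APPswe/PS1dE9 was driven by the mouse PrP promoter and Tau P301L by the CaMKII promoter, which is active in forebrain neurons, so neither transgene is directed at the endothelium specifically. The mice were perfused with saline before the hippocampus was taken, which removes most of the blood from the vessels.

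Endothelial cells line the brain capillaries and, together with pericytes and astrocyte end-feet, form the blood-brain barrier. Tight junctions seal the gaps between neighbouring cells, dedicated carriers bring in glucose and lipids, and efflux pumps return drugs and other compounds to the blood. The growth and upkeep of the vessels are steered by vascular endothelial growth factors (VEGFs) and angiopoietins, which act on receptor tyrosine kinases on the endothelial surface. The hippocampus contains many other cell types, and the endothelium is a small part of its RNA. In such bulk tissue, fewer endothelial cells and less RNA per endothelial cell cannot be told apart.

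The values are variance-stabilised read counts on a log2-like scale, with the effect of batch removed by the authors, so a difference of 1 is close to a fold of 2 for well-expressed genes. They are not scaled by transcript length, and the levels of different genes are therefore not compared with each other. The median value of a mouse lay between 8.05 and 8.31, and the depth of the libraries is not known from these values, so precision rests on the spread between mice. As a check of the genotype labels, App rose by 0.90 ± 0.05 (SE) and Prnp by 1.11 ± 0.05 in A+ carriers against non-carriers, with no overlap between carriers and non-carriers for either gene. Camk2a and Mapt differed by -0.06 ± 0.07 and 0.06 ± 0.05 in T+ carriers, with a limma adjusted p of 1.00 for both, and the mouse table does not single out the human tau transcript. The T+ labels were therefore not checked by these values. The paper reports raised human MAPT in AwT+ and A+T+ mice from reads aligned to human transcripts. Ly6c1 and Abcb1a have close copies in the mouse genome, Ly6c2 (without a row in the table) and Abcb1b (with one). How many reads fitted a close copy equally well is not known from these values, so these levels are less certain. All 27 genes of an endothelial identity list and all 11 of a pericyte list were present, so both lists could be read in full. Presence in bulk tissue does not show which cells the RNA came from.

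The promoters of the genes that the results turn on are shown as the 250 bases before the start of transcription, taken from RefSeq on GRCm38.p6. They are those of the 3 genes that passed the test for diet (Ly6c1, Mfsd2a and Slco1a4) and of the VEGF receptor genes Flt1 and Kdr, whose levels moved together between mice. Capitals mark matches on either strand to AGGAAG (an extended ETS core), GGGCGG (the GC box), TATAAA (the TATA box) and CTTTGA (a TCF/LEF core), which were chosen after the expression values were seen.
Ly6c1 (chr15:75048838-75049087, minus strand): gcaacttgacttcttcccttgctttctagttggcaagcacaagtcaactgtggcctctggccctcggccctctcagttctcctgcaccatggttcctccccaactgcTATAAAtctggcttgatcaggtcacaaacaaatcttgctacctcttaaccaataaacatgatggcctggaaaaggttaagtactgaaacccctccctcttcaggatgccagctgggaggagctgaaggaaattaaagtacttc
Mfsd2a (chr4:122961189-122961438, minus strand): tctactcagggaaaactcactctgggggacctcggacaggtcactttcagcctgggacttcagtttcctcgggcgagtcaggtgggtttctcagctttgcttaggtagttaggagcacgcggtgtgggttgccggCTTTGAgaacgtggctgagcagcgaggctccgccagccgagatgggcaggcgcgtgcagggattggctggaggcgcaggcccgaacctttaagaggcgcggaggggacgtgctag
Slco1a4 (chr6:141856221-141856470, minus strand): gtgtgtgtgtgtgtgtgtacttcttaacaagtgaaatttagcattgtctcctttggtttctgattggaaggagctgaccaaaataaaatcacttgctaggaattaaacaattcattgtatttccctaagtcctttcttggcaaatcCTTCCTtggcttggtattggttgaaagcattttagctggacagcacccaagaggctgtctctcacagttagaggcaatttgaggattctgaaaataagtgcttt
Flt1 (chr5:147726012-147726261, minus strand): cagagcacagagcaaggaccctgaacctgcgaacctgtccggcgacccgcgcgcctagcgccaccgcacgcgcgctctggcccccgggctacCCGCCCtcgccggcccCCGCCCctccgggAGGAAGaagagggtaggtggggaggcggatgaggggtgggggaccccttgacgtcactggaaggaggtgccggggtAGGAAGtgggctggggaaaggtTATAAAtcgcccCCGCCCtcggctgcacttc
Kdr (chr5:75978456-75978705, minus strand): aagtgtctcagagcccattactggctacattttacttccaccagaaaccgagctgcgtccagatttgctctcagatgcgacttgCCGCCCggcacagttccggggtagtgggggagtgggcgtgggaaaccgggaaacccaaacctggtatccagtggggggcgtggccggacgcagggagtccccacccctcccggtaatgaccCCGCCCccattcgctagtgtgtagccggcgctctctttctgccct
Of the 10 genes, 9 matched the RefSeq promoter table and Pecam1 did not. AGGAAG stood in a promoter of 4 of the 9 genes (Flt1, Abcb1a, Slco1a4 and the second RefSeq start of Ly6c1, which is not shown), against 29.5% of all 32851 promoters of this length. The 9 genes had 10 promoters, and a gene was counted when any of its promoters matched, whereas the shares count single promoters. GGGCGG stood in 4 of 9 (Flt1, Kdr, Slc2a1 and Cldn5) against 32.7% of all promoters. TATAAA stood in those of Flt1 and Ly6c1, against 12.4%, and CTTTGA in those of Mfsd2a and Abcb1a, against 13.8%. The RefSeq start used for Abcb1a lies 92986 bases upstream of its GENCODE M21 gene start, so its window is not the promoter of that start. Without Abcb1a, AGGAAG stood in 3 of 8 genes and CTTTGA in 1 of 8. A match is a run of letters and not a shown binding site. In the printed windows Flt1 and Kdr both carried GC boxes, whereas Ly6c1, Mfsd2a and Slco1a4 carried none. This contrast covers the printed windows alone, since Slc2a1 and Cldn5 also carried GC boxes and Tek and Abcb1a did not.

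The first comparison asked whether TWD changed the barrier genes irrespective of genotype, with 21 STD and 24 TWD mice. Ly6c1 and Mfsd2a rose, Slco1a4 fell, and the other 7 did not pass the test. Of the 10 genes 3 were called by limma (adjusted p under 0.05 over all genes), 2 of them higher and 1 lower on TWD. Among all 15897 genes the same comparison called 29.4%, of which 16.0% of all genes were higher and 13.4% lower, so the count among the barrier genes was close to that of the whole table. The median log2 difference of the 10 genes was 0.01, beside 0.00 over all genes.

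Ly6c1, a GPI-anchored surface protein that is abundant on brain capillary endothelium, rose by 0.39 ± 0.10 on the log2 scale (SE, adjusted p = 0.0157), a fold of 1.31. Over all genotypes the STD mice ranged from 8.00 to 9.18 with a median of 8.43, and the TWD mice from 8.14 to 9.49 with a median of 8.85. The ranges overlapped, and 22 of 24 TWD mice lay above the STD median. In AwTw mice the lowest, median and highest values were 8.02, 8.45 and 9.18 under STD, whereas TWD mice had 8.14, 8.95 and 9.40. In AwT+ mice they were 8.00, 8.28 and 8.66 on STD and 8.51, 8.82 and 9.49 on TWD. The AwT+ mice were the ones in which the diets came nearest to separating, with an overlap only between 8.51 and 8.66. The A+Tw/STD mice had 8.24, 8.99, 8.01, 8.02 and 8.78, and the A+Tw/TWD mice a lowest, median and highest of 8.53, 8.97 and 9.20. The A+T+/STD mice had 8.79, 8.81, 8.68 and 8.45, and the A+T+/TWD mice 8.36, 8.68 and 9.21. In A+T+ mice the STD values lay wholly inside the TWD range.

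Mfsd2a, which carries lysophosphatidylcholine with docosahexaenoic acid into the brain and restrains transcytosis through the endothelium, rose by 0.25 ± 0.09 (adjusted p = 0.0407), a fold of 1.19. STD mice ranged from 7.41 to 8.33 with a median of 7.97, and TWD mice from 7.47 to 8.66 with a median of 8.19. Of the TWD mice 17 of 24 lay above the STD median. In AwTw mice the lowest, median and highest were 7.41, 7.88 and 8.25 on STD and 7.74, 8.38 and 8.53 on TWD, and in AwT+ mice 7.66, 7.95 and 8.19 against 7.78, 8.38 and 8.58. The A+Tw/STD mice had 7.58, 8.16, 7.69, 7.68 and 8.12, beside 7.69, 8.06 and 8.43 on TWD. The A+T+/STD mice had 8.06, 8.33, 8.11 and 7.66, beside 7.47, 7.91 and 8.66 on TWD. The diets overlapped in all 4 genotypes, and in A+T+ mice the TWD values spread to both sides of the STD values. The call was narrow: it was lost without any 1 of 21 mice, with an adjusted p of up to 0.0714.

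Slco1a4, an organic anion transporter of the capillary membrane that carries thyroid hormone, steroid conjugates and drugs, fell by 0.41 ± 0.14 on the log2 scale (adjusted p = 0.0296), a fold of 0.755. STD mice ranged from 7.42 to 8.54 with a median of 8.09, and TWD mice from 6.20 to 8.68 with a median of 7.66. Of the TWD mice 20 of 24 lay below the STD median, and the TWD mice spread over a range wide enough to contain every STD mouse. In AwTw mice the lowest, median and highest were 7.51, 8.14 and 8.54 on STD and 6.79, 7.45 and 8.20 on TWD, and in AwT+ mice 7.50, 7.91 and 8.47 against 7.07, 7.49 and 8.68. The A+Tw/STD mice had 8.16, 7.56, 8.22, 7.72 and 7.63, beside 7.33, 7.70 and 8.00 on TWD. The A+T+/STD mice had 7.42, 8.09, 8.11 and 8.35, beside 6.20, 7.70 and 8.12 on TWD. The lowest value of all belonged to an A+T+/TWD mouse. Without AwT+/TWD replicate 3 or AwTw/TWD replicate 3 the call was lost for both Slco1a4 and Mfsd2a (adjusted p of 0.0541 and 0.0573 for Slco1a4), which left Ly6c1 as the only one called. The calls over the whole table fell as well, to 2856 and 2768 of 15897 genes, against 4678 with all mice.

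The other 7 genes did not pass the test. Cldn5, the main claudin of the endothelial tight junction, had a difference of 0.21 (95% interval -0.03 to 0.45), and Pecam1, an adhesion molecule at the contacts between endothelial cells, one of 0.04 (-0.14 to 0.22). The transporters among them were Slc2a1, the glucose carrier of the barrier, at 0.23 (0.00 to 0.46, unadjusted p = 0.0455 and adjusted p = 0.106), and Abcb1a, the P-glycoprotein efflux pump, at -0.01 (-0.13 to 0.11). Among the receptors, Flt1 (VEGF receptor 1, largely a decoy for VEGF-A) had -0.05 (-0.22 to 0.12), Kdr (VEGF receptor 2, the main signalling receptor) -0.17 (-0.37 to 0.02) and Tek (the angiopoietin receptor Tie2) -0.02 (-0.18 to 0.15). The interval was narrowest for Abcb1a, where differences beyond 0.13 in either direction lay outside it, and wider for Cldn5 and Slc2a1.

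**Figure D1:**
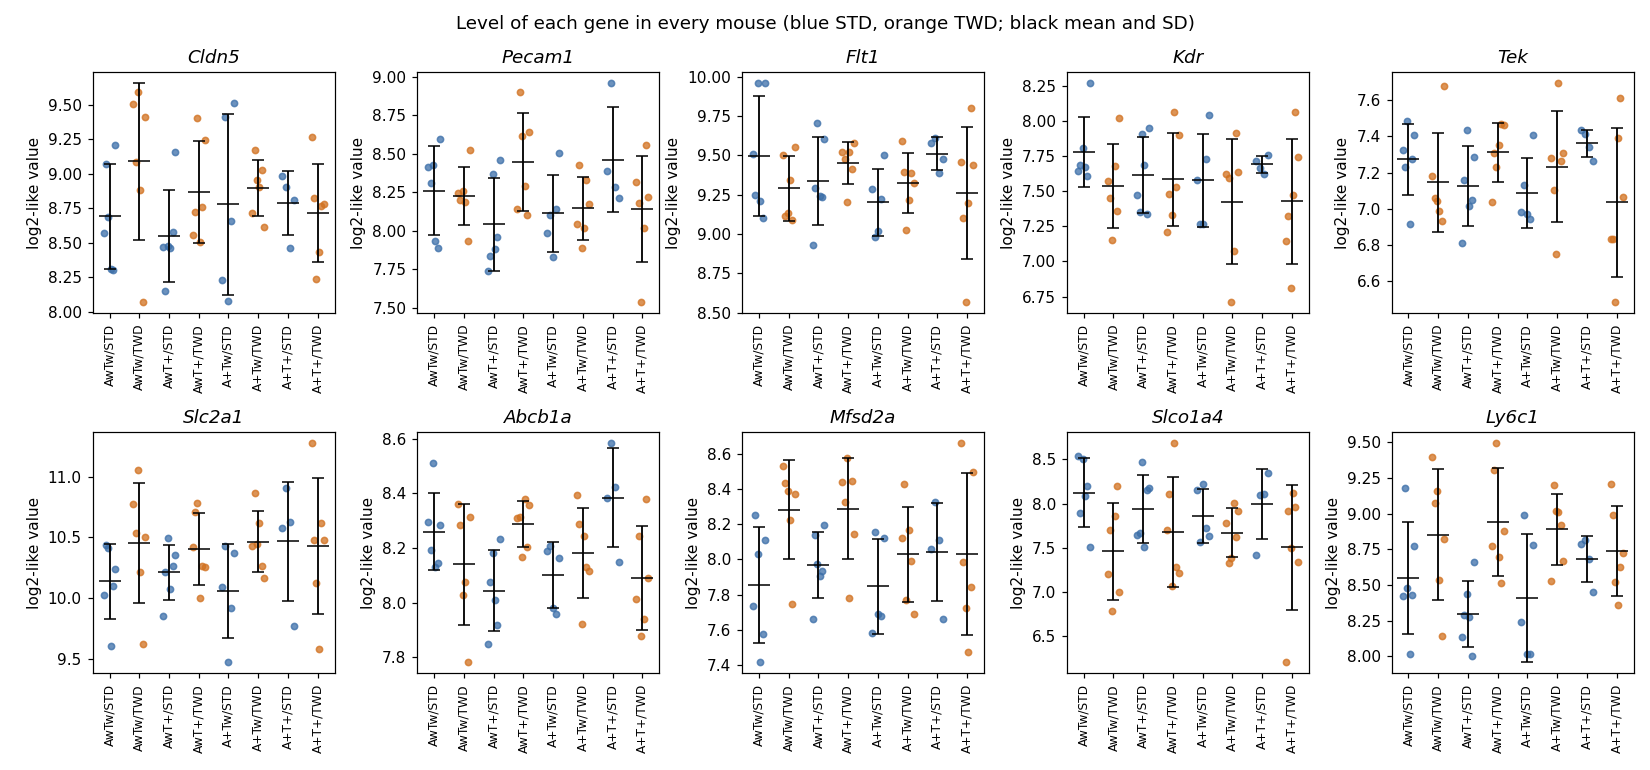
Each panel plots 1 gene, with the 8 genotype-by-diet groups on the x axis and the log2-like value on the y axis. Points are mice (blue STD, orange TWD) and black marks are the mean and SD. The groups overlap in every panel, and the lowest Slco1a4 value is 6.20 in an A+T+/TWD mouse.

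The 2 batches named in the labels gave different sizes of the diet effect. In batch 0 alone (8 STD and 12 TWD mice), Ly6c1 had a difference of 0.16 ± 0.14, Mfsd2a 0.08 ± 0.13 and Slco1a4 -0.35 ± 0.15, and limma called none of the 10 and none of all genes (1 member, Slco1a4, had an unadjusted p under 0.05, at 0.0336). In batch 1 alone (13 STD and 12 TWD mice), Ly6c1 had 0.60 ± 0.15, Mfsd2a 0.41 ± 0.12 and Slc2a1 0.46 ± 0.16, all 3 called among 40.9% of all genes, while Slco1a4 had -0.50 ± 0.22 with an adjusted p of 0.0631. Slco1a4 was thus similar in both batches, and Ly6c1 and Mfsd2a had their larger values in batch 1. The difference between the batches was not tested.

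The diet result also moved with the main axis of variation between mice. The gene weights of this axis are those of the first principal component of what remained after group and batch means were taken out, which held 41.3% of that variation over all genes. The score of a mouse applies these weights to its deposited values, group means included, so the score still holds any diet difference along the axis. It averaged -0.45 ± 0.85 (SD, n = 21) on STD and 0.39 ± 0.97 (n = 24) on TWD. Within batch 1 the means were -0.66 and 0.72, and within batch 0 they were -0.11 and 0.07. A fit with this score as a covariate therefore takes out, by construction, the part of a diet difference that lies along the axis. In that fit the difference for Ly6c1 was 0.14 ± 0.07 (adjusted p = 0.622), for Mfsd2a 0.04 ± 0.07 (0.888) and for Slco1a4 -0.08 ± 0.10 (0.818), and no gene of the table was called (0 of the 10 had an unadjusted p under 0.05). With group and batch means also taken out of the score, an alternative chosen after seeing the data, the differences were by construction those without a covariate, and Cldn5 and Slc2a1 were called beside the 3 genes, among 45.9% of all genes. In that fit variation along the axis no longer counts toward the error. When a smooth trend over transcript length and GC content was taken out of each mouse, Ly6c1 was called at 0.28 ± 0.08 (adjusted p = 0.0251, with 13.1% of all genes called), and Mfsd2a (0.11 ± 0.07) and Slco1a4 (-0.17 ± 0.09) were not called. The longest transcript has 844 bases for Ly6c1, 2151 for Mfsd2a and 3823 for Slco1a4, beside a median of 3335 over all genes. The cause of the axis was not tested.

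**Figure D2:**
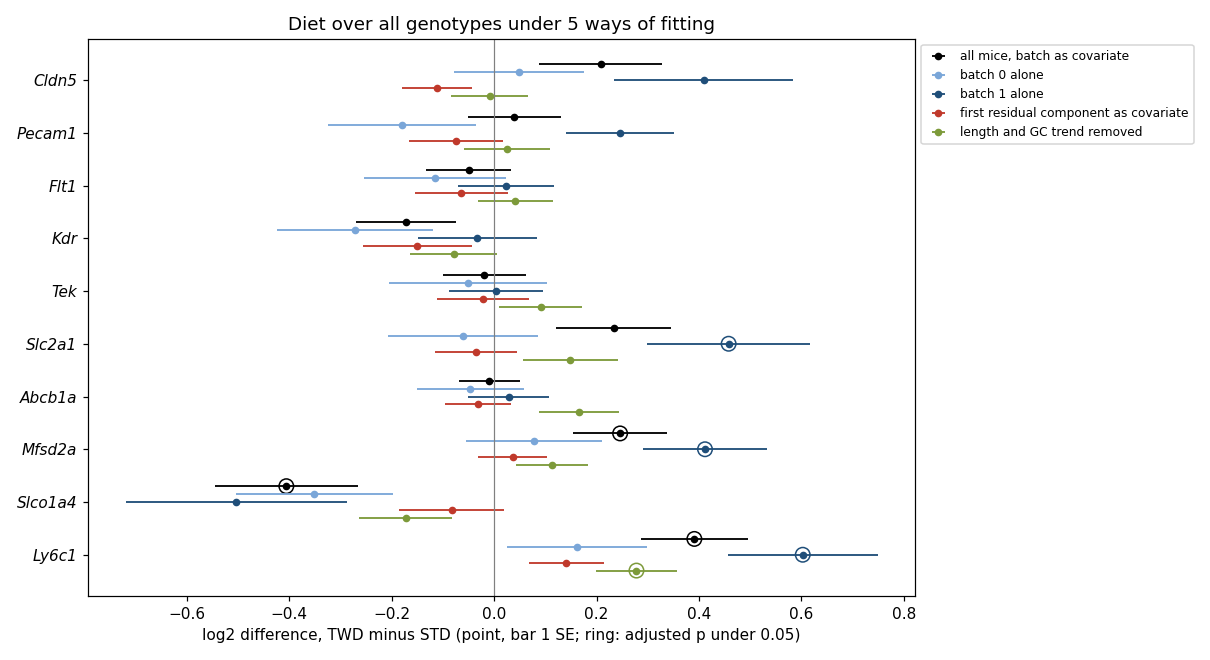
The x axis is the log2 difference of TWD minus STD over all genotypes, with 1 row of points per gene, bars of 1 SE, and rings around points with an adjusted p under 0.05. In black, Ly6c1, Mfsd2a and Slco1a4 carry rings; with the component score as a covariate (red), a score that still holds the diet difference along its axis, no gene does.

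Taken between mice rather than between diets, the genes did not behave as a single block. Pearson correlations were computed on residuals, after group and batch means were removed, for all 45 pairs of the 10 genes over 45 mice; the values of a mouse share 1 library, and 31 of the 45 pairs had a permutation p under 0.05 after adjustment over the pairs. Cldn5, Ly6c1, Slc2a1 and Mfsd2a varied together, with r from 0.67 to 0.83 in their 6 pairs. Flt1, Kdr, Tek, Pecam1 and Abcb1a did so as well, with r from 0.49 to 0.73 in their 10 pairs. These sets were read from the correlations and have no test of their own.

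The closest pair was the glucose carrier Slc2a1 with the lipid carrier Mfsd2a (r = 0.83, Spearman's rho = 0.81, permutation p = 1e-05 for both, the smallest that 100000 permutations can give, adjusted 3.7e-05 and 4.5e-05). It had r = 0.78 without the 2 mice farthest from the median of Mfsd2a, and 0.82 and 0.84 within batches 0 and 1. The VEGF receptors Flt1 and Kdr had r = 0.73 (rho = 0.73, permutation p = 1e-05 for both, adjusted 3.7e-05 and 4.5e-05), with 0.69 without the 2 farthest mice and 0.81 and 0.64 within the batches. Pecam1 sat between the sets, with r = 0.63 to Cldn5 and 0.71 to Flt1. Abcb1a also varied with the first set, with r from 0.35 (Cldn5) to 0.52 (Slc2a1), so the sets were not sharply apart. Ly6c1 and Kdr, both endothelial, had r = -0.03.

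Slco1a4 went the other way from the first set, with r from -0.60 (Cldn5) to -0.46 (Ly6c1). Only the pair with Cldn5 was of similar size in both batches: in batch 0 alone r was -0.18 with Slc2a1, -0.18 with Ly6c1 and -0.24 with Mfsd2a, against -0.64, -0.57 and -0.75 in batch 1. With Cldn5 it had rho = -0.54 (permutation p of 3e-05 for r and 0.00019 for rho, adjusted 9e-05 and 5e-04) and r = -0.57 without the 2 farthest mice. Within batches 0 and 1 that pair had r = -0.47 and -0.65. Its correlation with Abcb1a, another transporter of the luminal membrane, was 0.10.

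**Figure D3:**
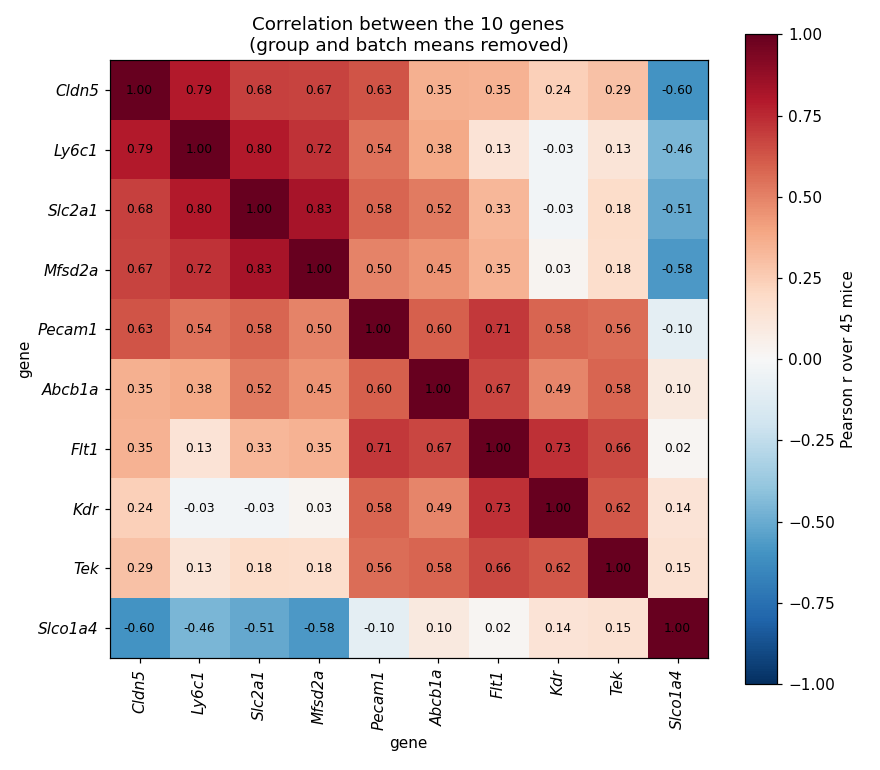
Both axes list the 10 genes, and colour and number give Pearson's r over 45 mice after group and batch means were removed. A block of Cldn5, Ly6c1, Slc2a1 and Mfsd2a (0.67 to 0.83) and a block of Pecam1, Abcb1a, Flt1, Kdr and Tek (0.49 to 0.73) stand out, with Slco1a4 negative to the first block.

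The same sets differed in how far they followed the main axis of variation. Over 10 relations, with group and batch means taken out of the gene and of the score, Cldn5 had r = 0.87 with the score (rho = 0.86), Ly6c1 0.85 (0.87), Slc2a1 0.78 (0.73), Mfsd2a 0.75 (0.71) and Slco1a4 -0.77 (-0.70), each with a permutation p of 1e-05 for r and rho (adjusted 2e-05). Pecam1 had r = 0.47 and rho = 0.54 (permutation p of 0.00122 and 0.00018, adjusted 0.00203 and 3e-04). Abcb1a (0.17), Flt1 (0.08), Tek (0.01) and Kdr (-0.07) had no permutation p under 0.05. The 6 former relations held without the 2 mice with the most extreme scores (r of 0.87, 0.86, 0.73, 0.74 and -0.70 in the order given, and 0.48 for Pecam1) and within each batch (at least 0.46 in size). The score was built from the same table, so these values describe how the genes varied and are no independent measure. A score of 12 choroid plexus genes, whose tissue lies beside the hippocampus, had r between -0.07 and 0.31 with the 10 genes, and 0 of these 10 relations passed after adjustment (1, that of Pecam1, had an unadjusted permutation p under 0.05).

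**Figure D4:**
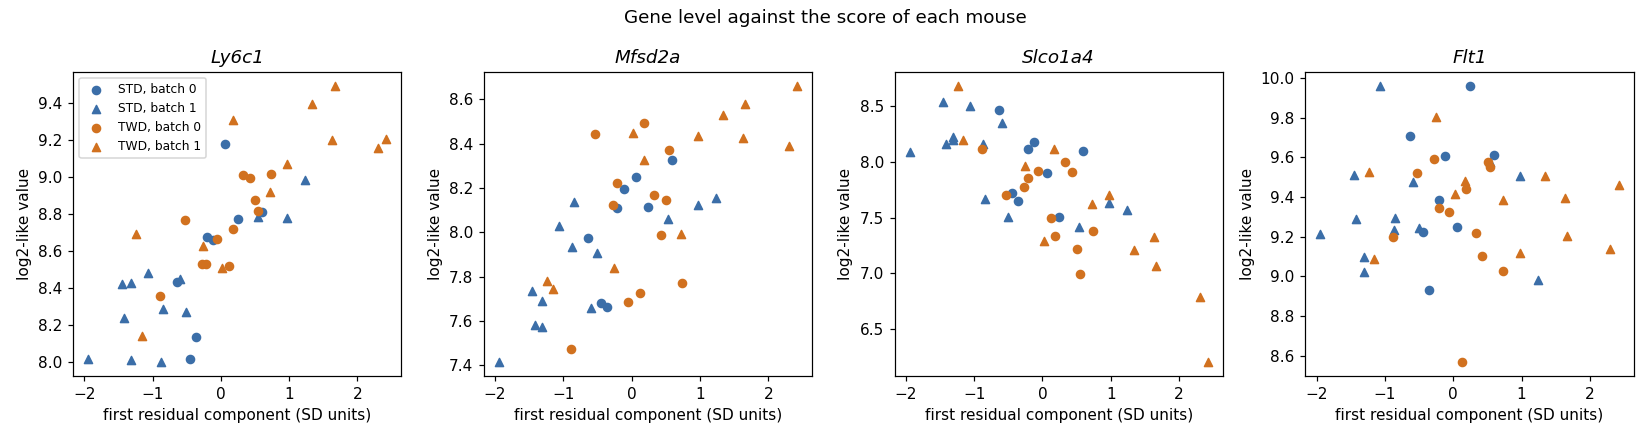
The x axis is the score of each mouse on the first residual component (in SD units) and the y axis the log2-like value, for Ly6c1, Mfsd2a, Slco1a4 and Flt1, with colour for diet and shape for batch. Ly6c1 and Mfsd2a climb and Slco1a4 descends along the axis, while Flt1 (r = 0.08) does not follow it.

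The genes closest to each member over the 45 mice, by Pearson's r on the same residuals, are given as a description, with no test of what kind of gene they are. For Flt1 they were Ptprb (0.81), Nes (0.76) and Zfp366 (0.75), and for Tek Ptprb (0.71), Podxl (0.68) and Slc39a6 (0.66). For Pecam1 they were Sema3g (0.80), Eng (0.74) and Mmrn2 (0.74), and for Abcb1a Adra2a (0.77), Sema3g (0.68) and the member Flt1 (0.67). Ptprb encodes the endothelial phosphatase VE-PTP, Eng the TGF-beta co-receptor endoglin and Podxl a sialomucin of the luminal surface, all of which are known from endothelium.

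For Ly6c1 the 3 nearest genes were Rps10 (0.92), Rps9 (0.90) and Rpl26 (0.90), which encode ribosomal proteins. Cldn5 was nearest to Vwa1 (0.90), Os9 (0.88) and Asna1 (0.88), Slc2a1 to Pglyrp1 (0.86), Cldn11 (0.84) and Slc35e4 (0.84), and Mfsd2a to Lrrc8a (0.86), Bcl2l1 (0.84) and Cotl1 (0.83). Slco1a4 was nearest to Pdia3 (0.86), Tmem65 (0.86) and Slc12a2 (0.85), and Kdr to Pcdhgc3, Cnnm2 and Ube2d3 (all 0.74). Pglyrp1 is on the list of endothelial identity used here, Cldn11 is the claudin of the myelin sheath, and Pdia3 is a disulphide isomerase of the endoplasmic reticulum.

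The diet comparison within each genotype called none of the 10. In AwTw mice 9.35% of all genes were called, and among the 10 genes 2 had an unadjusted p under 0.05: Mfsd2a at 0.43 ± 0.18 (adjusted p = 0.0735) and Slco1a4 at -0.66 ± 0.27 (adjusted p = 0.0727). Leaving out single mice changed this count together with that of the whole table. Without AwTw/TWD replicate 5 it was 3 (Cldn5, Slco1a4 and Mfsd2a) beside 38.2% of all genes, and without AwTw/STD replicate 6 it was 2 (Slco1a4 and Mfsd2a) beside 32.6%. It was 1 without AwTw/STD replicate 2 (Mfsd2a, beside 28.9%) or A+T+/TWD replicate 1 (Slco1a4, beside 23.0%). For diet, limma called 0% of all genes in each of the 3 transgenic genotypes (0% in AwT+, 0% in A+Tw, 0% in A+T+). Unadjusted p under 0.05 was found for 3 of 10 genes in AwT+ mice, for 1 in A+Tw mice (Ly6c1) and for 1 in A+T+ mice (Abcb1a).

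The diet difference of Ly6c1 was 0.30 ± 0.20 in wild-type mice, 0.64 ± 0.20 with the tau transgene (AwT+), 0.50 ± 0.21 with the amyloid transgenes (A+Tw) and 0.06 ± 0.22 with both (A+T+). Slco1a4 had -0.66 ± 0.27, -0.25 ± 0.27, -0.21 ± 0.29 and -0.50 ± 0.30 in the same order. Abcb1a had -0.12 ± 0.10, 0.25 ± 0.10, 0.08 ± 0.11 and -0.30 ± 0.11, positive in AwT+ and A+Tw and negative in the others. Pecam1 had -0.04 ± 0.16, 0.41 ± 0.16, 0.02 ± 0.18 and -0.33 ± 0.18. The interaction test set each transgenic genotype against AwTw alone. In it limma called 0 of the 10 and 0% of all genes for each. Only Abcb1a in AwT+ mice (0.37 ± 0.14, adjusted p = 0.780) had an unadjusted p under 0.05. Differences in diet effect between the transgenic genotypes, such as AwT+ against A+T+, were not tested. The 95% intervals of the interactions reached from -1.18 to 1.26 over the 10 genes.

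Genotype was compared with AwTw within each diet, to ask whether amyloid or tau transgenes altered the barrier genes. None of the 10 genes was called in any of the 6 comparisons. For AwT+ limma called 0% of all genes on STD and 0% on TWD. The share for A+Tw was 0.925% on STD and 0.824% on TWD, while A+T+ had 1.32% with STD and 0.730% with TWD. At an unadjusted p under 0.05 there was 1 member in AwT+ on STD (Abcb1a at -0.22 ± 0.10, adjusted p = 0.999) and 0 in the other 5. The largest differences in size were those of Cldn5 in A+T+ mice on TWD, at -0.38 (95% interval -0.86 to 0.10), and of Slc2a1 in A+T+ mice on STD, at 0.34 (-0.15 to 0.84).

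Pooling the genotypes narrowed the intervals. Between A+ carriers (21 mice) and non-carriers (24 mice), 3.77% of all genes were called and 0 of the 10, with 0 at an unadjusted p under 0.05. Their differences lay between -0.11 (Mfsd2a) and 0.06 (Slc2a1), and their 95% intervals between -0.34 and 0.30. For T+ carriers (22 mice) against non-carriers (23 mice), 0.0189% of all genes were called and 0 of the 10, again with 0 at an unadjusted p under 0.05, and the intervals lay between -0.38 and 0.34. Abcb1a had the narrowest intervals, of -0.10 to 0.11 for A+ and -0.08 to 0.14 for T+. With the first residual component as a covariate 1 member, Mfsd2a, was called as lower in A+ carriers (-0.21 ± 0.06, adjusted p = 0.0413), among 6.47% of all genes. The score, group means included, averaged 0.21 in A+ carriers and -0.19 in non-carriers. That fit therefore shifts, by construction, the A+ difference of a gene that follows the axis, as Mfsd2a does.

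**Figure D5:**
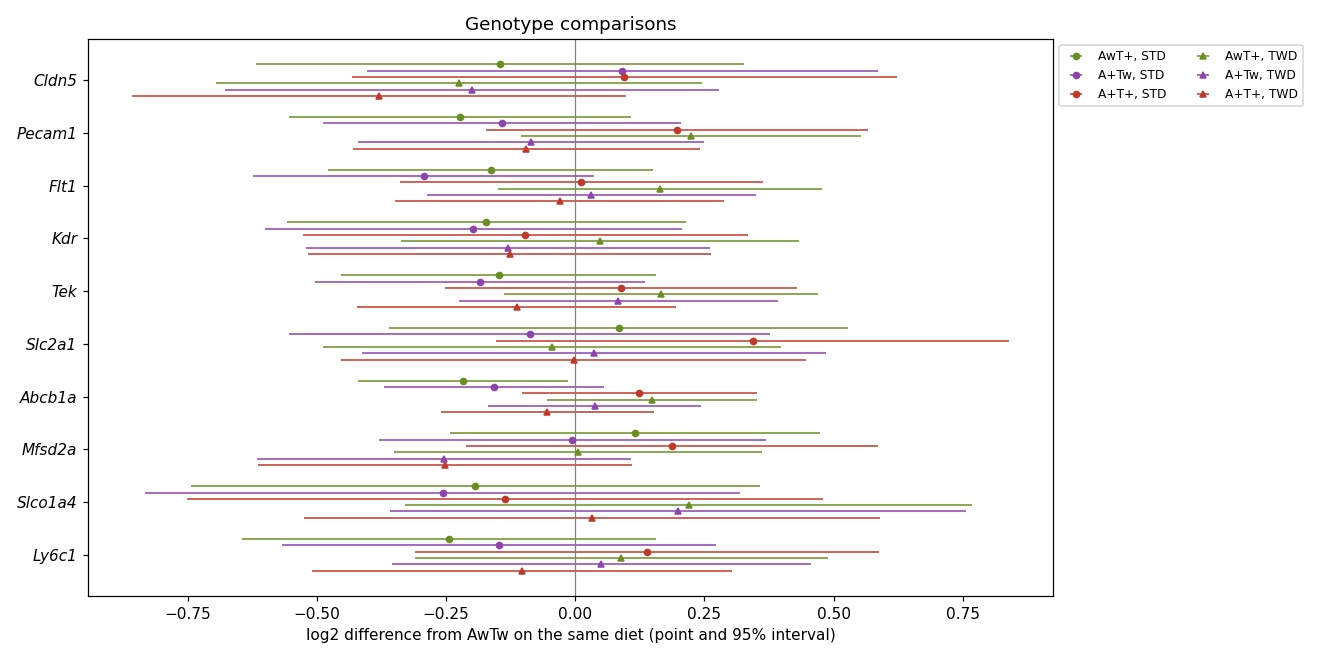
The x axis is the log2 difference of each transgenic genotype from AwTw on the same diet, with 95% intervals, and the rows are the 10 genes. Circles are STD and triangles TWD. The interval of Abcb1a for AwT+ on STD (-0.42 to -0.01) is the only one that does not include 0, with an adjusted p of 0.999.

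The order of the 8 group means was computed for each gene. The means spanned 0.66 for Slco1a4 (7.46 in AwTw/TWD to 8.12 in AwTw/STD), 0.64 for Ly6c1 (8.30 in AwT+/STD to 8.94 in AwT+/TWD), 0.54 for Cldn5 and 0.44 for Mfsd2a (7.85 in A+Tw/STD to 8.29 in AwT+/TWD). For Pecam1, Flt1, Tek, Slc2a1 and Abcb1a the A+T+/STD group was the highest, with a span of 0.31 to 0.42, and Kdr was highest in AwTw/STD with a span of 0.36. In none of the 10 genes did 2 neighbours in that order differ by more than the SD within groups, which ran from 0.16 (Abcb1a) to 0.49 (Slco1a4). The A+T+/STD group held 4 mice, and its choroid plexus score averaged 0.96 ± 0.23 (SD), above the means of the other groups, which lay between -0.74 and 0.33; its part in these levels was not tested.

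Around the members, 112 further genes were read from 9 lists on the vessel wall and its signals. In bulk hippocampus a place on a list does not show that the RNA came from the vessel wall. For diet over all genotypes 16 of the 112 rose and 19 fell, beside the 16.0% and 13.4% over all genes. As for the members, limma called none of the 112 in batch 0 alone (5 had an unadjusted p under 0.05) or with the first residual component as a covariate (8 did). No gene of the table was called in either fit. With the length and GC trend removed 5 rose and 1 fell, beside 13.1% of all genes called. More were called in batch 1 alone, where 36 rose and 17 fell. That fit called 6498 of all 15897 genes (40.9%), 3226 of them higher. With the choroid plexus score as a covariate 24 rose and 20 fell, and the share over all genes under that fit is not given here.

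Of 14 junction genes 1 rose, Esam (0.28), and 2 fell, Ctnnd1, the catenin p120 that steadies cadherins at the membrane (-0.29), and Cldn1 (-0.52). Cldn12 did not pass (-0.25, adjusted p = 0.0595). Of 15 measured genes of VEGF and angiopoietin signalling 3 rose and 3 fell. Among the ligands, Vegfb (0.31) and Pgf (0.23), which bind Flt1, rose, and Angpt1, the activating ligand of Tek, fell by 0.39. The co-receptor Nrp2 fell by 0.21. Their receptors Flt1 and Tek themselves were at -0.05 and -0.02.

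Of 16 transporter genes 1 rose and 5 fell. Slc3a2, the heavy chain of the large neutral amino acid carrier, rose (0.24), and the iron exporter Slc40a1 (-0.31), the efflux pump Abcc4 (-0.20) and the taurine carrier Slc6a6 (-0.14) fell. Of 14 genes of the Wnt pathway that maintains the barrier, the ligand Wnt7a rose (0.41), and the receptors Fzd4 (-0.32) and Fzd6 (-0.20) and the co-receptor Lrp6 (-0.36) fell. Of 5 genes of caveolae and leak, Cav2 fell (-0.29), and Plvap, a marker of fenestrated and leaky vessels, did not pass (0.16, adjusted p = 0.130).

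Of 27 genes of endothelial identity 7 rose and 3 fell, among them Vwf (von Willebrand factor, 0.61), Ly6a (0.38) and Ramp2 (adrenomedullin receptor subunit, 0.36) upward and Cyyr1 downward (-0.30). Of 11 pericyte genes 3 rose (Anpep by 0.50, Vtn by 0.36 and Cspg4 by 0.22) and 2 fell, Rgs5 the most (-0.45). None of the 5 smooth muscle genes was called by limma (3 had an unadjusted p under 0.05: Acta2 at 0.45, Myl9 at 0.30 and Tagln at 0.45), nor any of the 5 fibroblast genes (1 did, Dcn at -0.20). Within AwTw mice 7 of the 112 genes (6.25%, beside 9.35% of all genes) were called for diet, each at an adjusted p of 0.0498: Ramp2 (0.68) and Egfl7 (0.62) rose, and Cldn12 (-0.60), Adgrl4 (-0.88), Lrp6 (-0.73), Rgs5 (-0.77) and Abcc9 (-0.47) fell. These calls sat at the threshold, and limma called 0 genes of the table for diet in AwTw mice after quantile normalization, without the mean trend, with the length and GC trend removed, in batch 0 alone, or with the component score (group means kept) or the letters before the mouse number as a covariate.

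In the genotype comparisons 3 of the 112 genes were called, all of them between A+ carriers and non-carriers, which is 2.68% beside 3.77% of all genes, so calls were no more frequent in the vessel wall lists than in the table. Apln, the peptide ligand apelin, fell by 0.43 ± 0.07 in A+ carriers (adjusted p = 2.92e-05) and by 0.58 ± 0.14 in A+Tw against AwTw mice on TWD. Icam1, a leukocyte adhesion molecule, rose by 0.45 ± 0.09 in A+ carriers (adjusted p = 0.000751) and by 0.81 ± 0.19 in A+T+ against AwTw mice on STD (adjusted p = 0.0145, and 0.147 with the choroid plexus score as a covariate). F11r, the junctional adhesion molecule A, rose by 0.49 ± 0.11 in A+ carriers (adjusted p = 0.00257). Within batches 0 and 1 the differences between A+ carriers and non-carriers were -0.58 and -0.32 for Apln, 0.42 and 0.53 for Icam1, and 0.45 and 0.57 for F11r, of the same sign in both. Each group had equal weight in this contrast, and in batch 0 A+Tw/STD held 1 mouse and A+T+/STD 2.

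Icam1 and F11r are also made by microglia and other cells. In the same comparison 8 of 10 microglia marker genes rose, with a median of 0.61, and none fell, beside 3.77% of all genes called. The 12 choroid plexus genes had a median of 0.79 and none was called (5 had an unadjusted p under 0.05). The choroid plexus score ran from -1.33 to 1.17 in carriers and from -1.47 to 1.40 in non-carriers. The part of these cells in the rise of Icam1 and F11r was not tested. For diet, 4 of 10 microglia, 4 of 8 oligodendrocyte, 2 of 10 astrocyte and 2 of 10 neuron markers rose, and 1, 0, 3 and 3 fell. Over all genes 16.0% were called higher and 13.4% lower in that comparison. The 12 choroid plexus genes had a diet median of -0.52 and the 4 measured blood genes one of 0.16, none called (2 and 0 had an unadjusted p under 0.05).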

How the data were processed

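Hippocampal RNA of 45 separate mice was sequenced. Adapters and low-quality bases were cut by the authors using Trimmomatic 0.38. Reads matching ribosomal or mitochondrial sequence (Bowtie2 2.2.3) were discarded, and kallisto 0.44.0 quantified the transcripts. The authors summed the transcripts per gene, removed genes with a low mean count, and applied the variance-stabilising transformation of DESeq2 1.22.2. Batch was then removed with limma 3.38.3, so the values deposited by the authors are on a log2-like scale, with equal batch means for every gene. The libraries were made with a stranded mRNA kit, but the strand setting of the quantification and what the batches were are not given in the sources used here. Counts were not used, and the depth per mouse is unknown from these values.

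GENCODE M21 on GRCm38 supplied symbols, positions, transcript lengths and GC content. Of the 15897 genes 15695 had a symbol, and 157 genes repeat the values of an earlier gene. Groups and batches (20 and 25 mice) were taken from the sample labels. The test was the moderated, two-sided one of limma 3.58.1 (R 4.3.3), with a trend of the variance over the mean. P-values were adjusted by Benjamini-Hochberg across the whole table, and a gene was called at an adjusted p under 0.05. One fit held the 8 groups and batch. The diet comparison over all genotypes came from a second fit without the interaction of genotype with diet. Batch stayed in both fits although it had been removed before deposit, so that the errors allow for that step. The code was tested on simulated data in which every gene varied independently between mice. These data lacked the shared axis described above, so that test does not bear on how the calls depend on the axis.

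Correlations, with 100000 permutations (two-sided), used scipy 1.17.1, numpy 2.4.6 and pandas 2.3.3 under Python 3.11.15, and plots matplotlib 3.10.9. Every member is named, with the 4 genes of each vascular list with the smallest adjusted p for diet, any list gene called for genotype, and the 3 genes most like each member. The list genes called for diet within a genotype were named after their values were seen. The members and lists were chosen with earlier results of these data known. Results were recomputed with batch left out as a covariate, within each batch, with covariates for the first residual component (a score of the deposited values, and, added after seeing the data, the same score without group and batch means), for a choroid plexus score and for the letters before the mouse number, after quantile normalization or removal of a length and GC trend, with genes below the 25th percentile of the mean left out, with genes of equal values counted once, without the mean trend, with the compared groups alone (not for diet over all genotypes, which uses every group), and without each of the 45 mice in turn.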

Additional observations from a re-analysis of the deposited data

Results flagged for a closer look

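In a group of 4 to 10 mice, the highest or lowest mouse was listed when its gap to the nearest other mouse was a large share of the range of the group (Dixon's criterion at 95%). Of 80 combinations of gene and group, 2 were listed, and chance lists about 1 in 20. Kdr in AwTw/STD replicate 6 was at 8.27, with the next mouse at 7.81, a gap of 0.691 of the range. Tek in AwTw/TWD replicate 6 was at 7.68, with the next mouse at 7.18, a gap of 0.670 of the range. Both mice belong to batch 0, and neither gene was called in any comparison.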

How the results depend on the processing

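For diet over all genotypes 3 of the 10 genes were called, and 0 were in batch 0 alone (0 genes of the table) and with the first residual component as a covariate (0 genes), and 1 (Ly6c1) with the length and GC trend removed (2060 genes against 4678). The cause was not tested. In batch 1 alone the median difference of the 10 genes was 0.14, against 0.01. With 1 mouse left out at a time the number called ran from 1 to 4 over all genotypes and from 0 to 3 for diet in AwTw (0 with all mice), and the genes of the table called in AwTw ran from 0 to 6072 against 1487. Over all genotypes the genes of the table called ran from 2768 to 5917 with a mouse left out and were 6498 in batch 1 alone. With group and batch means taken out of the component score (chosen after seeing the data) 5 members were called over all genotypes (7300 genes), 4 in AwTw (7036), 1 in AwT+ (1842) and 1 in A+Tw (1614), against 3, 0, 0 and 0, since this fit leaves variation along the axis out of the error. It called 2814 genes for A+ carriers, 5 for T+ carriers against 3, 3179 and 797 for A+T+ on STD and TWD against 210 and 116, 1313 and 210 for A+Tw against 147 and 131, 24 and 656 for AwT+ against 0, and 1086, 267 and 2537 for the interactions of AwT+, A+Tw and A+T+ with diet against 0. For A+ carriers the first residual component as a covariate gave 1 called member (Mfsd2a) against 0, with 1028 genes against 599; these were 184 and 288 in batches 0 and 1, 953 with the length and GC trend removed and 346 above the 25th percentile of the mean. Diet in AwTw called 0 genes under 6 alternatives (batch 0 alone, the residual component with group means kept or the label letters as a covariate, quantile normalization, the length and GC trend removed, no mean trend), 1 with the compared groups alone, 2490 with no batch covariate, 2267 with the choroid plexus score, 2853 above the 25th percentile of the mean and 3982 in batch 1 alone. The differences of Ly6c1, Mfsd2a and Slco1a4 kept their sign in every alternative run, and with a mouse left out they ran from 0.35 to 0.43, from 0.22 to 0.28 and from -0.47 to -0.34. Ly6c1 kept its call without any 1 of 45 mice, Slco1a4 without 43 of them and Mfsd2a without 24. The remaining comparisons gave 0 called members under every alternative run, with all mice beside 0 to 210 called genes of the table. No paired analysis was possible because the mice of different groups are separate animals and the replicate numbers only name them. Precision is set by 4 to 6 mice per group, and the depth per mouse is not known.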
